A study of Mus musculus with 21 samples.

Results

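The resting, untreated state of mouse marrow macrophages grown with GM-CSF (granulocyte-macrophage colony-stimulating factor) was measured in 3 RNA libraries, those titled as untreated at 0 h, of 21 libraries in the series. The 3 libraries were picked out by their label alone, though the group was chosen for study with earlier results of these data known. All 21 came from bone marrow of C57BL/6J mice, cultured for 7 days with 2.5% supernatant of a cell line that secretes GM-CSF, and by the series' description all cells lacked the mannose receptor (MR, gene Mrc1), the untreated ones included. The remaining 18 libraries, 3 in each of 6 groups, were treated with FcMR, a fusion of the Fc part of human IgG1 with the extracellular part of MR, or with an isotype control protein, for 4, 12 or 24 h. The 9 isotype libraries served below as the comparison, and they differ from the untreated ones in time as well as in the added protein, which cannot be told apart. GM-CSF marrow cultures are mixed, no library was labelled as sorted, and the labels give neither age nor sex nor say whether replicates came from separate mice or cultures, so every p-value below measures only the spread between these samples.

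GM-CSF binds a receptor made of a ligand-specific alpha chain (Csf2ra) and a beta chain (Csf2rb) that is shared with the receptors for IL-3 and IL-5, and signals through JAK2 and STAT5. In the lung it is required for alveolar macrophages to mature. In culture it is known to drive marrow progenitors into macrophages and into cells with dendritic features that carry MHC class II, and it also keeps granulocytes alive. M-CSF, in contrast, acts through Csf1r, the receptor that marks most tissue macrophages.

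The untreated libraries held 9292540, 19376498 and 11240795 estimated counts, within the series' range of 5532225 to 66729533. Levels are CPM, counts scaled to a library total of 1000000, unless stated, and a per-length level (counts per base of the gene's median transcript, scaled to 1000000 and written TPM) is given where the levels of 2 genes are compared, while an order by counts is named as such. A count of 3 corresponds to 0.155 to 0.323 CPM in these libraries, and intervals cover counting error only. Mrc1 (chromosome 2, 14229392 to 14332057, GRCm38) had 3, 9 and 3 counts, or 0.323, 0.464 and 0.267 CPM, a pooled level of 0.376 CPM with a 95% Clopper-Pearson interval of 0.210 to 0.620. In the whole series it ranged from 0 to 11 counts in a library.

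A small number of genes carried much of the RNA. In all 3 untreated libraries 11923 genes reached 1 CPM, of which 11029 were annotated as protein coding. Only 91 genes averaged 1000 CPM or more, and these held 25.7%, 26.4% and 27.0% of the counts. The 25 most abundant genes held 16.5% ± 0.329 (SD, n = 3). Mitochondrial genes took 2.72 to 3.15% and ribosomal protein genes 4.04 to 4.40%. Both classes, pseudogenes and 4 genes of the ribosomal RNA locus on chromosome 17 were kept out of the ranking of abundant genes below. The counts and shares of genes just given include them.

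The most abundant transcript was Lyz2 (chromosome 10, 117277331 to 117282321), which encodes the lysozyme of macrophages and neutrophils. It stood at 24027, 25335 and 23495 CPM, with a CV (SD as a percentage of the mean) of 3.90%, and it was the highest gene in counts and per length, whether the median or the longest transcript was used. Its neighbour Lyz1, the Paneth-cell lysozyme, had 8.29, 9.96 and 10.1 CPM. As 34.2% of the 31-base words of Lyz1 also occur in Lyz2, part of that signal could come from the more abundant gene, and Lyz1 is reported as uncertain. Psap, the precursor of the lysosomal saposins, followed by counts with 16320, 14979 and 15158 CPM.

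Iron storage, secreted effector proteins and antigen presentation made up most of the other leading genes. The ferritin light chain Ftl1 had 12976, 8709 and 11788 CPM, lowest in replicate 2, and the heavy chain Fth1 8564, 8595 and 7934 CPM. Ftl1 shares 64.1% of its 31-base words with other genes and its level is the less certain of the pair. Mmp12, the macrophage elastase, had 9144, 10578 and 9221 CPM. The chemokine Ccl6 had 7790, 8145 and 7550 CPM, close together in all 3 libraries. Cd74, the class II invariant chain, had 7133, 7973 and 7467 CPM. Eef1a1 (a translation elongation factor), Ctsd (the lysosomal protease cathepsin D) and Lgals3 (galectin-3) completed the 10 highest by counts, with means of 7195, 5579 and 5241 CPM.

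Per length, Lyz2 averaged 19365 ± 885 and Ftl1 15237 ± 2899 TPM (SD, n = 3), and both lengths placed Lyz2 above Ftl1. Fth1, Ccl6, Eef1a1, Chil3, Mmp12, Cd74, Lgals3, Tmsb4x (a thymosin that binds actin) and Psap came next by median length, between 12274 and 6120. Their order changed with the transcript length: Psap, eleventh by median length, was the third highest gene by the longest transcript. The remaining genes of the highest 20 were the actins Actg1 and Actb, the lysosomal proteins Laptm5 and Ctss, the class II chains H2-Ab1 and H2-Aa, the class I chain H2-D1, Gapdh and the peroxidase Prdx1. Of these 20, 14 were also among the highest 20 by the longest transcript.

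**Figure D1:**
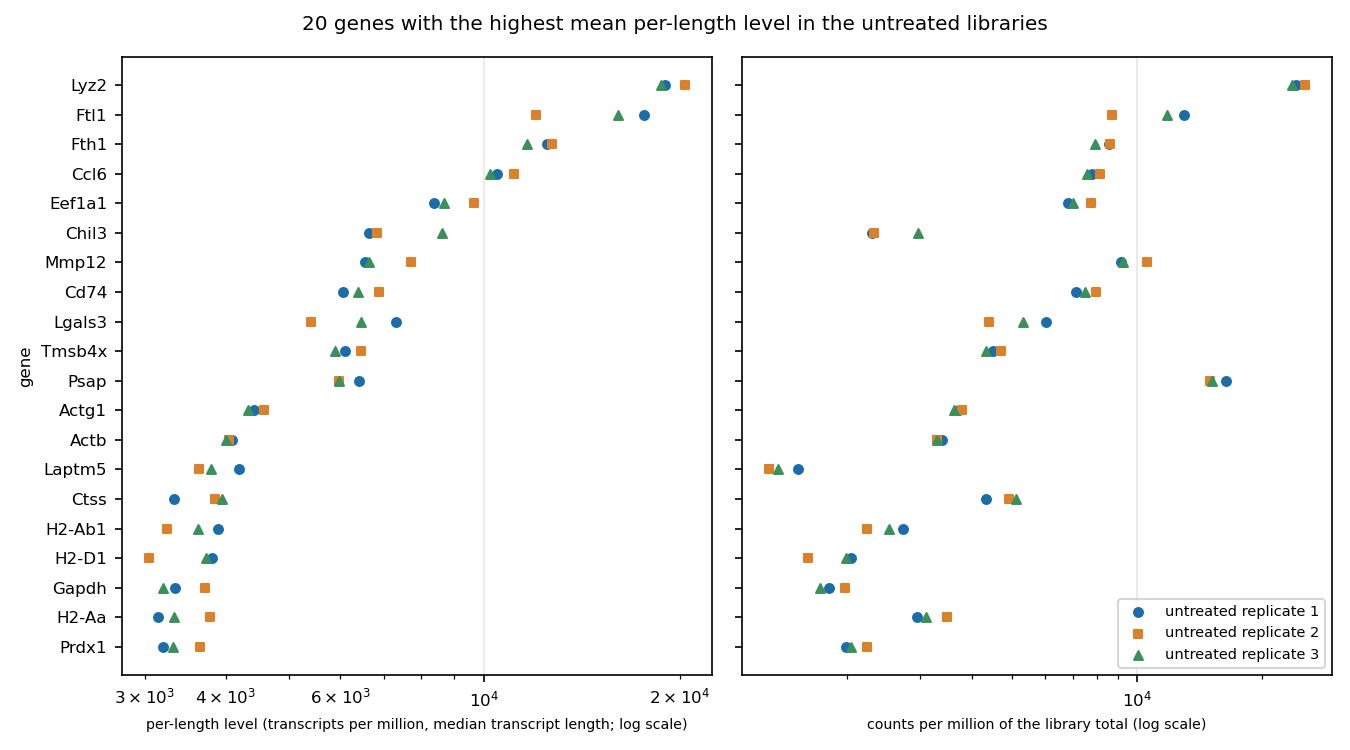
Per-length level (left, TPM) and CPM (right), both on log axes, of the 20 genes with the highest mean per-length level, 1 symbol for each of the 3 untreated libraries. Lyz2 lies to the right of every other gene in both panels, and the 3 libraries lie close together except for Ftl1, where replicate 2 is lowest at 8709 CPM.

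Genes shared by most macrophages were present in every untreated library. The conventional dendritic cell and late neutrophil lists met the same threshold in full, so presence alone does not set macrophages apart. All 16 members of the macrophage core list were at 1 CPM or more in all 3 libraries, 13 of them averaged 100 CPM or more, and their sum was 43551, 44225 and 43030 CPM. Behind Lyz2 and Lgals3 by counts came Ctss, the cathepsin that trims the invariant chain, with 4326, 4922 and 5105 CPM. Gpnmb, a lysosomal glycoprotein of lipid-laden macrophages, had 3235, 3155 and 3027 CPM. Mpeg1, the pore-forming protein perforin-2, had 1504, 1687 and 1504 CPM, and the scavenger receptor Cd36 had 946, 1177 and 1155 CPM. Adgre1, which encodes F4/80, had 227, 256 and 210 CPM. Itgam (CD11b) had 908, 937 and 804 CPM, but 67.2% of its 31-base words occur in the gene model Gm49368, and its level is uncertain. Ptprc (CD45), carried by all white blood cells, had 577, 650 and 581 CPM.

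Markers of resident tissue macrophages split into present and near-absent genes. The complement genes C1qb, C1qc and C1qa, a secretory product of mature macrophages, had 436, 422 and 416, then 155, 124 and 135, and 154, 107 and 138 CPM. Siglec1 (CD169) had 25.4, 19.1 and 19.8 CPM. The other resident markers were low: the transcription factor Maf had 9.04, 10.2 and 11.7 CPM, and the fractalkine receptor Cx3cr1 2.04, 2.94 and 4.09 CPM. Lyve1 (a hyaluronan receptor), Timd4 (a receptor for dying cells), Folr2 (a folate receptor) and Vsig4 (a complement receptor) were each under 0.5 CPM in every library. The haemoglobin scavenger receptor Cd163 was at 0.861, 0.877 and 1.33 CPM. Mrc1 was also under 0.5 CPM, but all cells lacked MR by the series' description, so its level says nothing about the resting state. In all, 6 of the 12 listed genes, Mrc1 counted among the 12, reached 1 CPM in all 3 libraries.

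Genes known from alveolar macrophages and from the response to GM-CSF were abundant. Of 17 members in the table, 16 reached 1 CPM in all 3 libraries. Chil3 (Ym1, a chitinase-like secreted protein) had 2306, 2334 and 2965 CPM, highest in replicate 3, though it shares 28.9% of its 31-base words with Chil4. Fabp5, a fatty acid carrier, had 1333, 1215 and 1287 CPM, and the tetraspanin Cd9 had 1001, 962 and 906 CPM. Plet1, a surface glycoprotein, had 918, 857 and 762 CPM. Atp6v0d2, a proton pump subunit, averaged 746 CPM, and Bhlhe40, a transcriptional repressor, averaged 600 CPM. Pparg, the nuclear receptor on which alveolar macrophage identity depends, stood at 30.3, 36.4 and 31.4 CPM, and Cish, a feedback inhibitor induced through STAT5, at 51.8, 45.2 and 42.3 CPM. Krt79 was the single low member, with 1, 0 and 1 counts. Marco, a scavenger receptor, was the least even member: 37.2, 15.9 and 18.9 CPM.

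Dendritic cell genes were present beside the macrophage genes. All 20 members of the conventional dendritic cell list reached 1 CPM in all 3 libraries, and 10 averaged 100 CPM or more. The lectin Mgl2 had 1138, 1391 and 1218 CPM and the integrin Itgax (CD11c) 1141, 1286 and 1176 CPM. The chemokines Ccl17 (988, 966 and 652 CPM) and Ccl22 (792, 899 and 803 CPM) attract T cells through the same receptor. Id2, a transcription factor needed by dendritic cells, averaged 674 CPM. Ccr7, which guides dendritic cells to lymph nodes, had 263, 277 and 289 CPM. Zbtb46, a transcription factor used to tell conventional dendritic cells from macrophages, had 52.5, 56.4 and 45.9 CPM. The markers of the cross-presenting subset were low: Clec9a had 8.29, 9.96 and 8.01 CPM, and the chemokine receptor Xcr1 1.40, 2.84 and 1.51 CPM. Flt3, the growth factor receptor of dendritic precursors, had 2.26, 2.94 and 3.65 CPM.

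In a bulk library fewer cells of a type and less RNA per cell cannot be told apart, so these levels give no share of macrophages or dendritic cells. Markers of plasmacytoid dendritic cells were scarce: Siglech had 1.61, 1.03 and 1.69 CPM, and Ccr9 0.430, 0.774 and 1.07 CPM. Runx2 and Tcf4, which other cells also express, averaged 25.4 and 20.4 CPM.

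MHC class II genes were among the most abundant groups. CIITA (Ciita) is the master coactivator of these genes and acts through factors bound to the S, X and Y boxes just upstream of each start. H2-Aa stood at 2955, 3489 and 3107 CPM, H2-Ab1 at 2726, 2234 and 2523 CPM, and H2-Eb1 at 2380, 2329 and 2137 CPM. H2-DMa and H2-DMb1, which encode the peptide editor H2-M, averaged 336 and 329 CPM. H2-Oa and H2-Ob, which encode an inhibitor of H2-M that is known from B cells and some dendritic cells, had 25.1, 27.8 and 29.1 CPM and 52.4, 53.5 and 47.1 CPM. Ciita had 152, 121 and 95.2 CPM. Of the costimulatory genes, Cd86 averaged 215, Cd80 63.5 and Cd40 31.1 CPM. The 13 genes of the list summed to 16543, 17348 and 16487 CPM, with a CV of 2.87%.

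The promoters of the class II genes are shown because this group stands high in the resting state and moves together in the comparison with the isotype libraries below. RefSeq's promoter table (GRCm38.p6) held 7 of the 8 H2 genes of the list, and H2-Ab1 was not in it. Of the 7, 6 had the Y box core TGATTGG, the site of the factor NF-Y, on either strand within 250 bases before the start. H2-DMa had no such match. Over the 27025 genes of that table, 8.38% had a match. The motif was chosen after the sequences had been seen, and a match is a description of letters only. The 120 bases before each start are printed in the direction of transcription with the motif in capitals. Positions were for H2-Aa chr17:34287824-34287943 on the minus strand, and for H2-Eb1 chr17:34305747-34305866 on the plus strand. They were chr17:34153071-34153190 on the plus strand for H2-DMb1 and chr17:34145129-34145248 on the plus strand for H2-DMb2. They were chr17:34092259-34092378 on the plus strand for H2-Oa and chr17:34238785-34238904 on the plus strand for H2-Ob. The motif began 50 bases before the start in H2-Aa, 61 in H2-Eb1, 63 in H2-DMb1, 92 in H2-DMb2, 45 in H2-Oa and 59 in H2-Ob.
H2-Aa: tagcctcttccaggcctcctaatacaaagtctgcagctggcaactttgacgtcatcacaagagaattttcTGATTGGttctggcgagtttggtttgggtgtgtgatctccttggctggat
H2-Eb1: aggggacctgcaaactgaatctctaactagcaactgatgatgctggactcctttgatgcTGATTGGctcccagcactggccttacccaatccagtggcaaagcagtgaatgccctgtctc
H2-DMb1: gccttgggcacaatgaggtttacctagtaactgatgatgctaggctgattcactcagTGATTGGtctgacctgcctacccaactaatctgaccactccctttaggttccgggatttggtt
H2-DMb2: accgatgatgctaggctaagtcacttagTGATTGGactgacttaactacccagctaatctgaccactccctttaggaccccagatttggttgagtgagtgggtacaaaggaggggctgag
H2-Oa: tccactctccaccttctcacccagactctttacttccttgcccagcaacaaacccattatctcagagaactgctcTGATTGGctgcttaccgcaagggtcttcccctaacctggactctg
H2-Ob: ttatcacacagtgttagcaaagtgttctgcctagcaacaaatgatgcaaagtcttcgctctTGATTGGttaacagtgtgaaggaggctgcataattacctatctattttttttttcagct
The neighbouring genes H2-DMb1 and H2-DMb2 also share 31.4% of the 31-base words of H2-DMb1, so counts could pass between the pair.

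Granulocyte genes were present in all 3 libraries. The major basic protein gene Prg2 had 691, 543 and 598 CPM and the eosinophil peroxidase Epx 159, 97.6 and 137 CPM. Siglecf, carried by eosinophils and by alveolar macrophages, had 42.0, 40.7 and 35.4 CPM. The receptors Ccr3 and Il5ra were near 2 CPM, at 2.58, 1.96 and 2.67 CPM and at 1.83, 2.17 and 2.14 CPM. All 4 eosinophil genes with a mean of at least 10 CPM were highest in replicate 1, as were 3282 of all 8392 genes at that level.

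Neutrophil genes were listed as those of the late granules and mature cells and those of the primary granules, which promyelocytes make. All 17 late genes reached 1 CPM in all 3 libraries, and their sum was 2283, 2280 and 2480 CPM. S100a9 and S100a8, which together form calprotectin, had 803, 724 and 820 CPM and 425, 434 and 493 CPM. The collagenase Mmp8 had 372, 462 and 394 CPM, the granule protein Ngp 271, 286 and 317 CPM, and lipocalin-2 (Lcn2) 105, 96.8 and 126 CPM. Ly6g, the surface marker of mature neutrophils, had 7.43, 6.97 and 8.27 CPM. Of the 13 late genes with a mean of at least 10 CPM, 10 were highest in replicate 3. Of all 8392 genes at that level, 1595 were highest there. The primary granule genes Mpo (9.36, 4.80 and 7.83 CPM) and Elane (8.18, 3.72 and 6.14 CPM) were low, and lowest in replicate 2.

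Monocyte and progenitor genes were at intermediate levels. Ly6c2, a surface marker of inflammatory monocytes, had 158, 158 and 151 CPM. F13a1, which encodes a chain of coagulation factor XIII, had 122, 130 and 105 CPM, and the chemokine receptor Ccr2 81.7, 97.9 and 79.2 CPM. Basophil and mast cell genes were detected at low levels, among them Kit (17.1, 19.9 and 20.7 CPM), the carboxypeptidase Cpa3 (a mean of 15.3 CPM) and the basophil protease Prss34 (17.5, 9.81 and 9.07 CPM).

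Markers of T cells, NK cells, red cells and stroma were mostly under 1 CPM, and B cell markers were low. None of the 8 T cell genes reached 1 CPM in all 3 libraries, and the receptor genes Cd3e, Cd3d and Cd3g had 2, 12 and 13 counts in the 3 libraries together. Neither NK cell gene in the table reached 1 CPM in all 3 libraries. Of 8 B cell genes 6 reached 1 CPM in all 3 libraries, with a list median of 1.70 CPM, and Ighm, the mu heavy chain, had 21.5, 38.6 and 21.5 CPM. Adult globins were between 0.103 and 4.71 CPM and lowest in replicate 2. The stromal genes Col1a1, Col1a2 and Col3a1 were at or under 1.42 CPM. Lepr, the leptin receptor, was the exception in the stromal list with 24.9, 30.5 and 32.1 CPM.

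**Figure D2:**
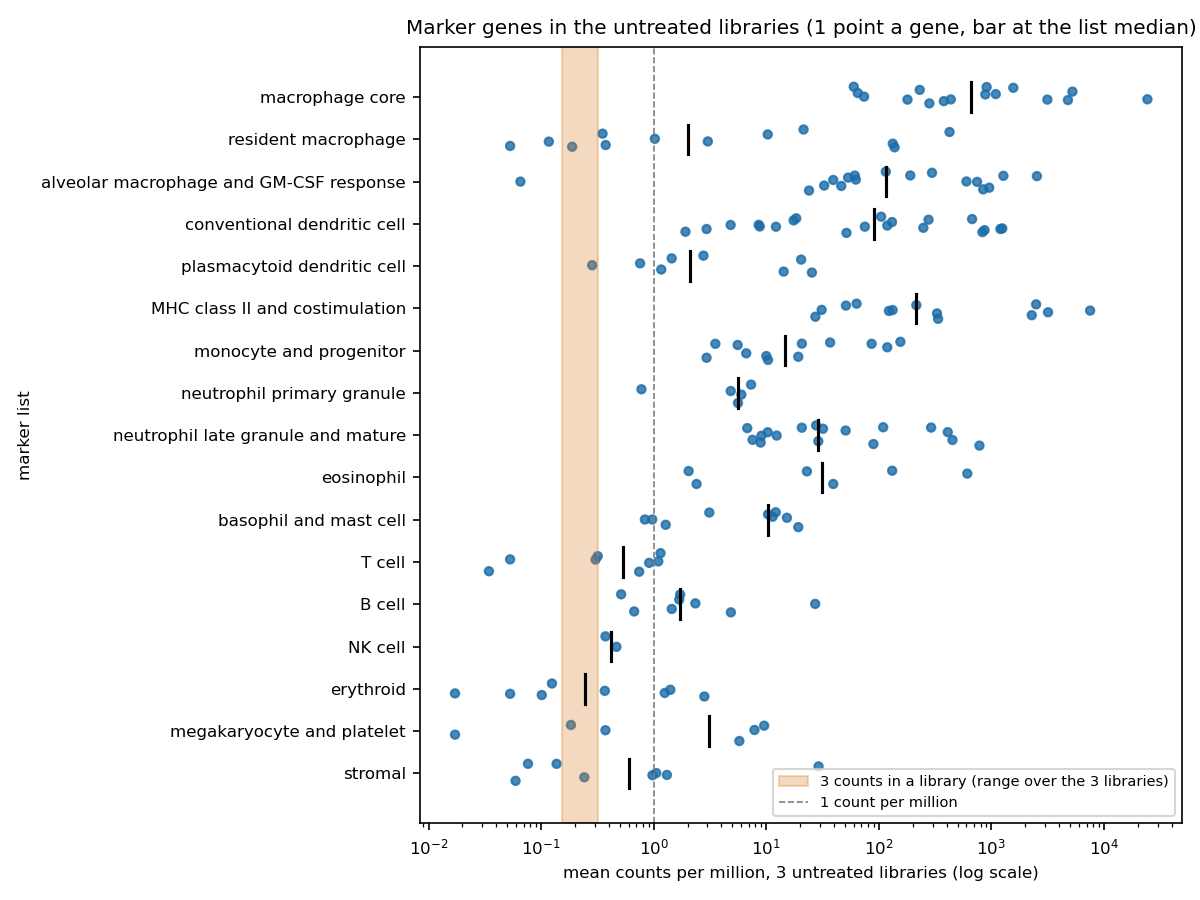
Mean CPM over the 3 untreated libraries (log axis) of each gene of the 17 marker lists, 1 point a gene, with a black bar at the list's median. The shaded band is the level of 3 counts, 0.155 to 0.323 CPM. Macrophage, class II and GM-CSF response genes lie to the right, with list medians of 659, 215 and 115 CPM, and the T cell, NK cell and erythroid lists have medians of 0.531, 0.420 and 0.247 CPM.

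Receptors of the colony-stimulating factor family come first, since these cells were grown on GM-CSF. Csf2rb (chromosome 15, 78325752 to 78353847) stood at 2333, 2360 and 2171 CPM, the 31st highest gene by counts with no class of genes left out. Csf2rb2 (chromosome 15, 78282507 to 78305721), the mouse copy that serves IL-3 alone, had 1074, 1070 and 1084 CPM, and 28.6% of its 31-base words also lie in Csf2rb, so the split between them is uncertain. Csf1r had 901, 925 and 894 CPM. Csf2ra (chromosome 19, 61223957 to 61228429) had 249, 122 and 166 CPM and was the uneven chain of the pair, highest in replicate 1 and lowest in replicate 2. Per length, Csf2ra reached 0.134, 0.0647 and 0.0956 of Csf2rb, and 0.168 on average with the longest transcripts, so the alpha chain was the scarcer of the pair by either length. The alpha chain of the IL-3 receptor, Il3ra, had 17, 5.42 and 12.7 CPM, and that of the IL-5 receptor, Il5ra, about 2 CPM. Csf3r, the G-CSF receptor of neutrophils, had 29.5, 27.0 and 30.4 CPM. The erythropoietin receptor Epor had 0, 1 and 0 counts.

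The promoter of Csf2ra is shown because this chain sets the specificity for GM-CSF and was uneven between the libraries. The 120 bases before the RefSeq start (chr19:61228419-61228538 on the minus strand, GRCm38.p6) end in a pair of GAGGAA motifs, in capitals, 14 and 8 bases before it. The motif is part of the site bound by PU.1, an ETS factor of myeloid cells. The gene model used for the counts starts further upstream, at 61228429. The motif at 14 bases spans the start of that model, and the motif at 8 bases lies inside it. A match on either strand within 250 bases was present in 4 of the 8 receptor genes of this family that RefSeq's table held, and in 25.9% of all genes of the table. This motif too was chosen after the sequences had been seen.
Csf2ra: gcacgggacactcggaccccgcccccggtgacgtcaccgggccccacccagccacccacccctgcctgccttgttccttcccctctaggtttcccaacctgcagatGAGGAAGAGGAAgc
The GC content of the transcripts of Csf2ra was 62.2%.

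To see for which cytokines both receptor chains were detected as RNA, 21 ligand and receptor-chain pairs were read side by side. In bulk libraries of mixed cultures both chains need not lie in the same cell, so a pair shows no complete receptor. The pairs were chosen after the levels had been seen and carry no test. Both chains were at 5 CPM or more in all 3 libraries for 14 pairs, and for 4 pairs a chain stayed under 1 CPM in all 3. Pairs with both chains included those for GM-CSF, IL-4, IL-7, IL-21, IL-6, IL-18, IL-33, IL-10, type I interferon, interferon gamma and TGF-beta. A chain was missing or near the limit for IL-2 (Il2rb, 0.108, 0.310 and 0.178 CPM), oncostatin M (Osmr, 0 counts), IL-12 (Il12rb1, 0.861, 0.413 and 0.356 CPM) and IL-17A (Il17rc, 0.430, 0.258 and 0.623 CPM). For Osmr, with 0 of 39909833 pooled counts, the upper bound of the 95% Clopper-Pearson interval was 0.0924 CPM, and 3 counts would be 0.0752 CPM.

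Within the common gamma chain family Il7r, the IL-7 receptor alpha chain, was highest by counts, at 312, 426 and 410 CPM. Il4ra had 161, 158 and 157 CPM, Il2rg, the common chain itself, 112, 139 and 123 CPM, Il21r 83.0, 94.7 and 80.5 CPM, and Il13ra1 70.7, 82.6 and 90.5 CPM. Il2ra (CD25) had 32.6, 43.8 and 34.3 CPM although Il2rb, which signals for IL-2, was under 0.5 CPM. Crlf2, which pairs with Il7r to bind TSLP, was the least even receptor: 53.1 CPM in replicate 1, 6.76 in replicate 2 and 26.6 in replicate 3. In the gp130 family the shared chain Il6st had 308, 362 and 337 CPM and Il6ra 111, 126 and 132 CPM, and Il11ra1, which shares over 50% of its 31-base words with other genes, had 124, 97.0 and 114 CPM.

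In the IL-1 family the decoy receptor was far above the signalling receptor per length. Il1r2, which binds IL-1 without signalling, had 463, 535 and 455 CPM, and Il1r1, the signalling receptor, 2.48, 3.56 and 4.27 CPM. Per length Il1r2 was 997, 800 and 568 times Il1r1, and 579 times with the longest transcripts. The shared accessory chain Il1rap had 41.9, 46.3 and 41.7 CPM. The IL-18 receptor chains Il18rap and Il18r1 averaged 37.2 and 14.9 CPM, and Il1rl1, the IL-33 receptor, had 16.5, 14.9 and 13.3 CPM. Each of the 6 family members with a mean of at least 10 CPM was lowest in replicate 3, as were 2844 of all 8392 genes at that level.

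Receptors for TNF family ligands, interferons and TGF-beta were about as even between libraries as other genes. The median CV of members at 10 CPM or more was 8.44% for TNF family receptors, 8.02% for interferon and IL-10 receptors and 6.72% for TGF-beta receptors, against 7.93% over all genes. The TNF receptor list, with 17 of 17 members at 1 CPM or more, summed to 1670, 1716 and 1730 CPM, a CV of the sum of 1.85%. Tnfrsf1b (TNF receptor 2) had 972, 970 and 988 CPM, Tnfrsf9 (4-1BB) 181, 232 and 218 CPM, and Tnfrsf1a (TNF receptor 1) 131, 119 and 129 CPM. The interferon chains Ifnar1, Ifnar2, Ifngr1 and Ifngr2 were between 68.0 and 170 CPM in every library. The IL-10 receptor chains Il10ra and Il10rb were between 123 and 153 CPM. Tgfbr1 had 368, 392 and 367 CPM and Tgfbr2, the ligand-binding chain, 103, 85.5 and 86.4 CPM. Of the IL-17 receptor family, Il17ra (97.3, 89.9 and 88.3 CPM) was the single member of 5 to reach 1 CPM in all 3 libraries.

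Among receptor tyrosine kinases and the neuropilin coreceptors listed with them, Csf1r and Axl stood highest by counts. Axl, a receptor that senses dying cells through Gas6, had 856, 791 and 776 CPM, and its relative Mertk 79.2, 74.5 and 68.1 CPM. Nrp2 had 607, 613 and 560 CPM, the hepatocyte growth factor receptor Met 266, 329 and 344 CPM, and Nrp1 87.1, 109 and 95.6 CPM. Of 21 members in the table, 14 reached 1 CPM in all 3 libraries. Fgfr2 had no count in any of the 3, and Erbb2 and Mst1r had 3 pooled counts each.

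**Figure D3:**
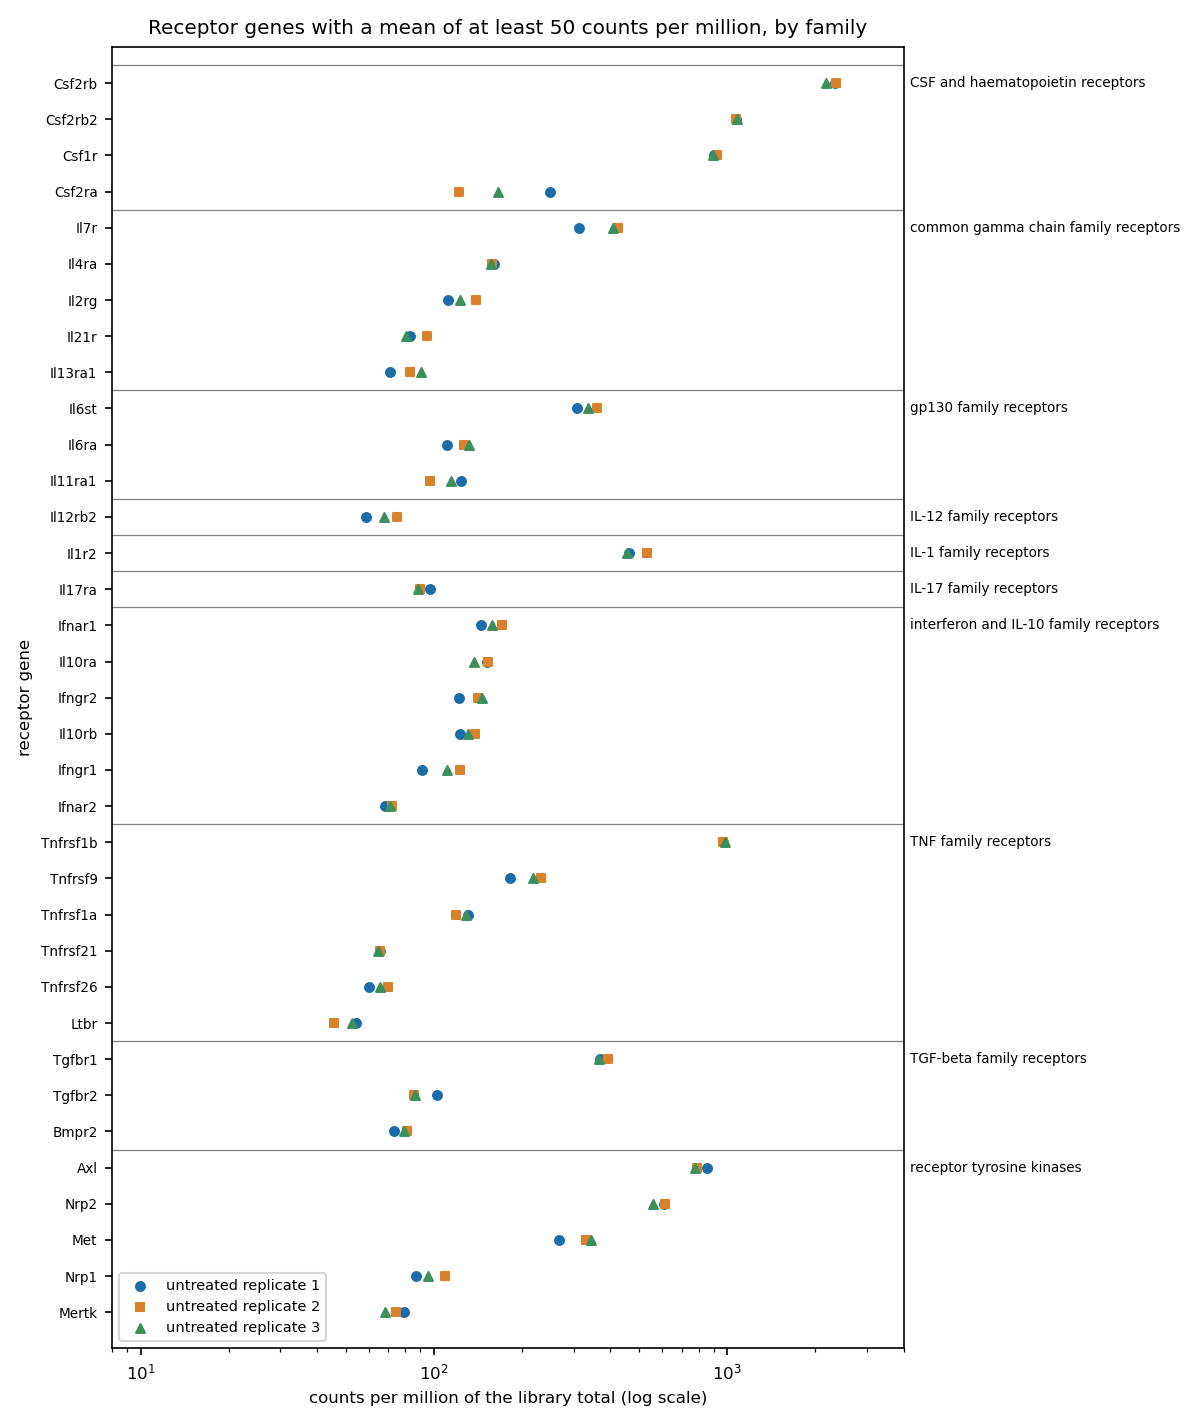
CPM (log axis) in each untreated library of the receptor genes with a mean of at least 50 CPM, grouped by family. Csf2rb is highest at 2171 to 2360 CPM, symbols mostly coincide, and Csf2ra is spread from 122 to 249 CPM.

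Of 32 cytokine and growth factor genes, 19 reached 1 CPM in all 3 resting libraries. Il1rn, the IL-1 receptor antagonist, was highest by counts at 525, 618 and 611 CPM. Tgfb1 had 343, 219 and 280 CPM, Csf1 (M-CSF) 184, 197 and 179 CPM, Tnf 179, 173 and 179 CPM, Igf1 136, 148 and 146 CPM, and Vegfa 118, 114 and 148 CPM. Il1b averaged 116 CPM. Csf2, which encodes GM-CSF itself, had 3, 5 and 1 counts, a pooled 0.226 CPM with a 95% Clopper-Pearson interval of 0.103 to 0.428. Ifng and Il34 had no counts.

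The 3 libraries were close for most genes. Over the 8392 genes with a mean of at least 10 CPM the median CV was 7.93%, against 4.33% for counting error alone, and 64.2% of the genes had a CV under 10%. Pearson's r of log2 CPM across genes, which are not independent replicates, was 0.975 between replicates 1 and 2, 0.984 between 1 and 3 and 0.986 between 2 and 3. The pairs differed far beyond counting noise, with a chi-square per degree of freedom of 18.3 to 25.5, so no pair agreed within sampling noise. In all, 168 genes were at least 2-fold apart between the highest and lowest library, and 42 had a CV over 50%, 10 of them pseudogenes.

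Among the genes given above, Csf2rb2 had a CV of 0.659%, Actb 1.46% and Csf1r 1.81%. The 12 most variable genes at 10 CPM or more, pseudogenes left out, fell into a few kinds. Several were noncoding RNAs. Rn7s1 and Rn7s2 are copies of the signal recognition particle RNA whose sequence is fully shared with other genes. Each had 76.8 CPM in replicate 3 and under 6 CPM in the others. Rn7sk had 4.30, 2.22 and 26.5 CPM. Mir6236, AA474408 (77.5, 65.4 and 440 CPM) and Gm15564 were also highest in replicate 3. So was Lars2, a mitochondrial leucyl-tRNA synthetase, with 434, 653 and 2988 CPM. The ribosomal RNA locus took 0.494, 0.613 and 1.45% of the counts in the same order, against 0.337 to 1.0% in the 18 libraries of the other groups, and its part in these values was not tested.

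Gm10273 and Gm26669, which share over 90% of their 31-base words with other genes, were highest in replicate 2. Gm10273, annotated as protein coding, had the largest CV of all, 169%. The remaining 3 of the 12 were highest in replicate 1 and lowest in replicate 2: Gdf15, a stress-induced cytokine, with 29.4, 4.39 and 12.5 CPM, Crlf2, given above, and Junb, an AP-1 subunit, with 171, 30.7 and 89.3 CPM. This order was common among variable genes. Of the 100 largest CVs outside pseudogenes, 81 were highest in replicate 1 and 83 lowest in replicate 2. Of all 8392 genes at 10 CPM or more, 3282 were highest in replicate 1 and 2502 lowest in replicate 2.

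Base composition moved with that order. The median GC content of those 100 genes was 59.3%, against 49.5% over all genes at 10 CPM or more, and 65 of them lay above the 90th percentile of GC content. When a smooth curve on GC content was removed from each library's log2 CPM, an analysis added after seeing the data, the median CV went from 7.93% to 6.31% and the genes at least 2-fold apart from 168 to 72. Csf2ra was among the genes that moved most: its CV went from 36.1% to 8.90%. Jund went from 48.7% to 8.88%, Il3ra from 50% to 20.9%, Junb from 72.7% to 49.2% and Crlf2 from 80.6% to 51.8%. Lars2 (104% and 105%) and Marco (48.2% and 41.7%) kept most of theirs. For other genes the CV rose: Cd74 went from 5.62% to 14.5%, C1qb from 2.48% to 11.4% and Csf2rb2 from 0.659% to 4.38%.

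**Figure D4:**
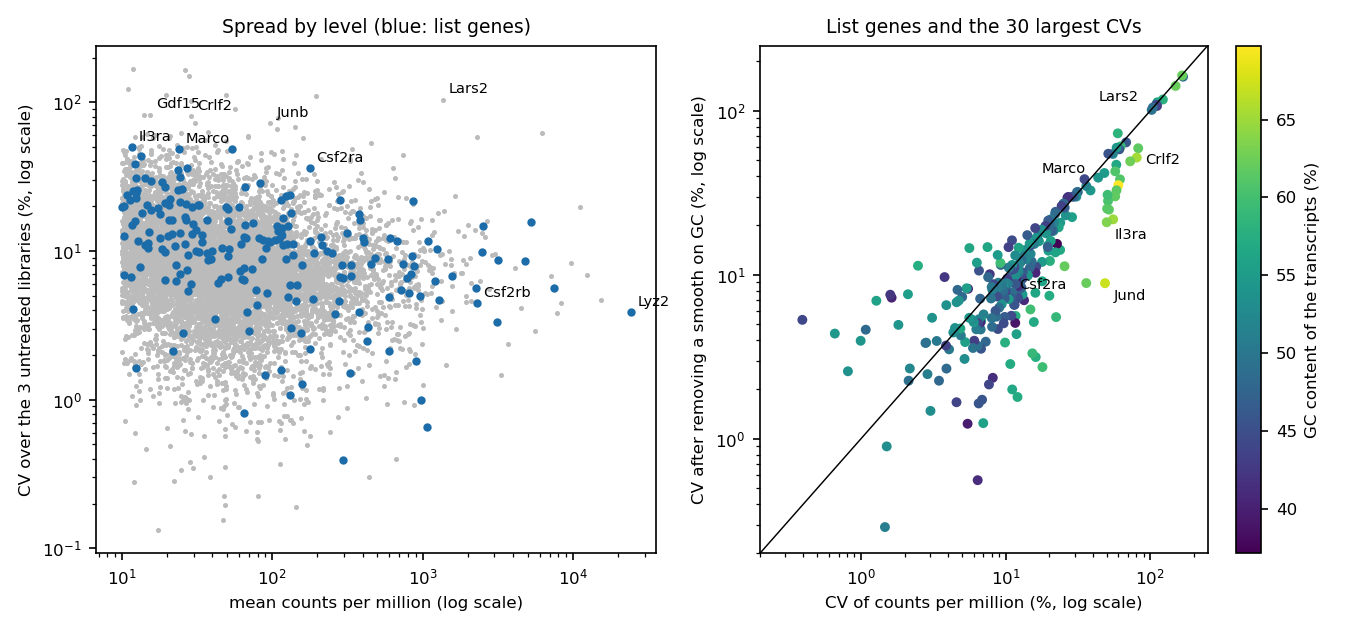
Left, CV over the 3 untreated libraries against mean CPM for all genes at 10 CPM or more (grey) and list genes (blue), both axes log. Right, CV before and after removal of a smooth on GC content, coloured by GC content, with the line of equality. Csf2ra and Jund drop from 36.1% and 48.7% to below 9%, while Lars2 stays on the line at 104%.

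Proliferation genes formed a second pattern between the libraries. All 30 genes of the cell cycle list reached 1 CPM in all 3, and their sum was 1090, 978 and 789 CPM. Mki67, the proliferation marker, had 137, 121 and 87.1 CPM, Top2a 79.2, 72.0 and 45.5 CPM, and the mitotic ubiquitin enzyme Ube2c 19.5, 13.2 and 7.74 CPM. Of the 24 with a mean of at least 10 CPM, 21 were highest in replicate 1 and 22 lowest in replicate 3, where 2844 of all 8392 genes were lowest. For Ube2c the removal of the GC curve changed the CV only from 43.6% to 39.1%. Immediate-early genes, which cell handling can induce, were present in all 3 libraries: the transcription factor genes Klf6 and Atf3 had 350, 447 and 413 and 280, 319 and 293 CPM, Fos 25.3, 23.7 and 29.4 CPM and Egr1 25.8, 22.4 and 24.5 CPM.

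The untreated libraries were then set against the 9 isotype libraries, cells that had received a control protein for 4 to 24 h. In this comparison values are CPM scaled by edgeR's TMM factors (1.09 to 1.12 in the untreated libraries), so they stand somewhat below the CPM above. The test is edgeR's quasi-likelihood test with Benjamini-Hochberg adjustment over 13468 genes, on the log2 difference of the untreated group minus the mean of the 3 isotype groups. At an adjusted p under 0.05, 43.1% of all genes tested passed, 20.7% higher and 22.4% lower in untreated cells, with a median log2 difference of 0.0126. With a GC correction 4727 genes were lower and 2777 higher, in place of 3014 and 2787. Against the single isotype times, which share the 3 untreated libraries, 35.6% of genes passed at 4 h (15.2% higher, 20.4% lower), 41.6% at 12 h (19.6% higher, 22% lower) and 42.2% at 24 h (20.9% higher, 21.3% lower). Each list below is read against these shares. The spread within groups differed: the common biological coefficient of variation (edgeR) was 14.4% in the untreated group and 31.7% in the isotype group at 4 h, the highest of the 7 groups.

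Neither chain of the GM-CSF receptor, nor Csf2rb2, passed the test against the mean of the isotype groups. Csf2rb had an edgeR log2 difference of 0.13 (SE 0.0743, adjusted p = 0.164) and Csf2rb2 of 0.08 (adjusted p = 0.361). Against isotype 24 h alone both passed, with edgeR log2 differences of 0.28 (adjusted p = 0.0211) and 0.30 (adjusted p = 0.00691), and Csf2rb also passed against all 6 treated groups (0.20, adjusted p = 0.0237). Against isotype 12 h alone and with the GC correction the sign of both was negative, and neither passed. Csf2ra, at 224, 108 and 152 scaled CPM in untreated cells and 62.7 to 275 in isotype cells, had an edgeR log2 difference of 0.06 (adjusted p = 0.917), and its libraries overlapped widely. With the GC correction its edgeR log2 difference was -0.41 (adjusted p = 0.000807), so its direction depends on that setting. Csf1r was lower in untreated cells, with 812, 823 and 819 against 784 to 1227 scaled CPM (log2 difference -0.30, adjusted p = 0.00774, edgeR), and the groups overlapped. For Csf1r the single times 4 h and 24 h did not pass (adjusted p = 0.289 and 0.161, edgeR).

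Genes known from alveolar macrophages and the GM-CSF response were more often higher than lower in the resting state. Of 16 genes tested in the alveolar and GM-CSF response list, 10 were higher and 3 lower in untreated cells, with a median log2 difference of 0.72. At the single times 6, 13 and 10 were higher and 4, 3 and 5 lower, at 4, 12 and 24 h. Plet1 had 827, 763 and 699 scaled CPM in untreated cells and 26.1 to 265 in isotype cells, with no overlap (log2 difference 3.34, SE 0.0679, adjusted p = 2.96e-16). Car4, a membrane carbonic anhydrase, was higher by 2.64 on the log2 scale and Cish by 2.42, both without overlap. Against the single isotype times Cish differed by 0.83 at 4 h, 2.73 at 12 h and 3.69 at 24 h on the log2 scale. Bhlhe41, a transcriptional repressor active in alveolar macrophages, was lower in untreated cells by 1.41, and Fabp5 by 0.71 on the log2 scale.

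Core macrophage genes were mostly lower in untreated cells. Of 16 tested, 11 were lower and 1, the endotoxin coreceptor Cd14, was higher, with a median log2 difference of -0.51. At the single times 8, 10 and 12 were lower, at 4, 12 and 24 h. Adgre1 had 204, 227 and 192 scaled CPM in untreated cells and 231 to 879 in isotype cells, lowest at 4 h and highest at 24 h (log2 difference -1.31, SE 0.111, adjusted p = 2.74e-08). Gpnmb had 2915, 2807 and 2775 scaled CPM against 3171 to 9543 (log2 difference -1.19, SE 0.106, adjusted p = 5.84e-08). The scavenger receptor Msr1 had 244, 269 and 247 scaled CPM against 388 to 892 (log2 difference -1.21). The call for Cd14 was lost without untreated replicate 1 or 3, isotype 4 h replicate 1, isotype 12 h replicate 1, or isotype 24 h replicate 2 or 3. That for Lyz2, with a log2 difference of -0.19 (adjusted p = 0.0340, edgeR), was lost without any 1 of the 3 untreated libraries (-0.18 to -0.21) and without isotype 24 h replicate 1 (-0.19). Ptprc, which belongs to no list here, was lower in untreated cells by 0.47 on the log2 scale without overlap. For Ptprc the 12 h and 24 h comparisons alone did not pass (adjusted p = 0.140 and 0.162, edgeR). Resident macrophage genes were split: of 6 tested, 3 were higher and 3 lower in untreated cells. At the single times 2, 3 and 3 were higher and 1, 3 and 3 lower, at 4, 12 and 24 h. C1qc and C1qb were higher by 1.34 and 1.26 on the log2 scale and Cx3cr1 lower by 1.59, each without overlap. For C1qc the 4 h comparison alone did not pass (adjusted p = 0.0529, edgeR).

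Antigen presentation genes were higher in the resting state as a group. Of 13 class II and costimulation genes, 12 were higher and 1 lower, with a median log2 difference of 1.13, and in 11 the libraries did not overlap, against 22.9% of all genes tested. At the single times 9, 11 and 12 of the 13 were higher, at 4, 12 and 24 h. H2-Ob had 47.2, 47.6 and 43.2 scaled CPM against 1.96 to 15.5 (log2 difference 3.22, SE 0.111, adjusted p = 2.23e-13). H2-DMb2 had 123, 118 and 118 scaled CPM against 8.10 to 37.1 (log2 difference 2.62), and H2-Oa 22.6, 24.7 and 26.7 against 4.07 to 9.49 (log2 difference 2.03). These 3 genes had the largest differences among the genes of the list that were higher. The abundant chains differed less: H2-Aa by 0.71, H2-Eb1 by 0.89 and Cd74 by 0.79 on the log2 scale. Cd40, the receptor for T cell help, was the exception, with 29.4, 29.4 and 25.2 scaled CPM against 231 to 444 at 4 h, 149 to 184 at 12 h and 32.9 to 41.0 at 24 h. Its log2 difference was -2.19 (SE 0.179, adjusted p = 1.79e-08), and the 24 h comparison alone did not pass (adjusted p = 0.114, edgeR).

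Dendritic cell genes did not move as a block: 10 of 20 were higher and 6 lower, and at 4, 12 and 24 h alone 6, 9 and 10 were higher and 4, 6 and 6 lower. The lectins stood out among those higher. Clec10a had 86.9, 112 and 122 scaled CPM in untreated cells and 2.34 to 10.04 in isotype cells (log2 difference 4.61, SE 0.148, adjusted p = 1.21e-13). Cd209a, which encodes a DC-SIGN relative, had 138, 414 and 183 counts in the untreated libraries and 0 to 8 in the isotype ones. The integrin Itgae was higher by 3.13 on the log2 scale. Flt3 had 2.04, 2.62 and 3.34 scaled CPM against 8.60 to 30.8 (log2 difference -2.86), and the actin bundler Fscn1 77.9, 56.4 and 69.2 against 123 to 760 (log2 difference -2.41). The transcription factor Irf8 was lower by 1.20.

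Granulocyte and progenitor genes were higher in the untreated libraries. Of 17 late neutrophil genes 15 were higher and 1 lower, with a median log2 difference of 1.87, and at the single times 10, 14 and 15 were higher, at 4, 12 and 24 h. Of 6 eosinophil genes 5 were higher and none lower, and 3, 6 and 4 were higher at 4, 12 and 24 h. Of 9 basophil and mast cell genes tested, 7 were higher and none lower, and 2, 6 and 8 were higher at 4, 12 and 24 h. In 3 of the 9 the libraries did not overlap, against 22.9% of all genes tested. Retnlg, a resistin-like protein of neutrophils, had 5.62, 3.99 and 8.81 scaled CPM against 0.0756 to 3.24 (log2 difference 3.99), and Cd177, a neutrophil surface protein, was higher by 3.02. The granule gene Crisp3 had 85, 266 and 160 counts against 0 to 3 in isotype libraries. Prg2 had 622, 483 and 548 scaled CPM against 53.6 to 351 (log2 difference 1.86, SE 0.155, adjusted p = 2.19e-08), and Epx was higher by 2.75. Of 5 primary granule genes tested 4 were higher and 1 lower, and at 4 h alone 2 were higher and 1 lower. Elane and Mpo were higher by 4.10 and 3.21 on the log2 scale. The lower gene was Gfi1, a transcription factor of granulocyte precursors, with 0.873, 0.505 and 0.734 scaled CPM against 7.17 to 8.10 at 4 h and 0.214 to 0.643 at 24 h (log2 difference -1.45). Of 12 monocyte and progenitor genes 8 were higher and 2 lower, among them Ms4a3, higher by 3.64, and Ly6c2, lower by 1.12.

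The cell cycle genes that varied between the untreated libraries were also higher in them as a group. Of 30 cell cycle genes 20 were higher in untreated cells and none lower, with a median log2 difference of 0.84. At the single times 11, 21 and 15 were higher and 1, 1 and 2 lower, at 4, 12 and 24 h. The mitotic genes Ccnb2, Cdc20 and Plk1 were higher by 1.93, 1.92 and 1.44. In 5 of the 30 the libraries did not overlap, against 22.9% of all genes tested, and Mki67 had 79.9 to 123 scaled CPM in untreated cells and 27.6 to 168 in isotype cells. The granulocyte, monocyte and cell cycle lists thus all stood higher in the same 3 libraries, and the part of the makeup of the cultures in the other results was not tested.

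Cytokine receptors differed by family. Of 8 IL-1 family receptors 5 were higher and 1 lower in untreated cells. Il1r2 had 417, 476 and 418 scaled CPM in the resting libraries, 34.4 to 45.7 at 4 h, 5.49 to 7.18 at 12 h and 3.98 to 4.80 at 24 h (log2 difference 5.39, SE 0.108, adjusted p = 2.96e-16). Il1rl1 and Il18r1 were each higher by 2.07. Of 7 gp130 family receptors 5 were higher and none lower, and 3, 5 and 5 were higher at 4, 12 and 24 h, with 1 lower at 12 h. Lepr had 22.4, 27.1 and 29.4 scaled CPM against 1.68 to 7.46 (log2 difference 3.12), and Il6ra 100.1, 112 and 121 against 29.7 to 44.4 (log2 difference 1.61). In the gp130 family 1 further member became lower without untreated replicate 2, isotype 4 h replicate 1 or isotype 12 h replicate 2.

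Common gamma chain receptors were lower in the resting state: of 8 tested none was higher and 6 were lower, with a median log2 difference of -0.71. At the single times 6, 4 and 3 were lower, at 4, 12 and 24 h. Il15ra had 6.21, 6.52 and 6.36 scaled CPM against 26.9 to 34.0 (log2 difference -2.22, SE 0.104, adjusted p = 1.34e-11). Il2ra was lower by 1.23 and Il2rg by 1.02 on the log2 scale, and for Il2ra the 24 h comparison alone did not pass (adjusted p = 0.0598, edgeR). The receptor tyrosine kinases were split, with 6 of 17 higher and 7 lower, and 3, 4 and 5 higher and 5, 8 and 4 lower at 4, 12 and 24 h. Met had 240.1, 293 and 315 scaled CPM against 425 to 810 (log2 difference -1.14), Nrp1 was lower by 1.22, and the fibroblast growth factor receptor Fgfr1 was higher by 1.26. Of 17 TNF family receptors 3 were higher and 4 lower, close to the background shares, and at 4, 12 and 24 h alone 1, 5 and 4 were higher and 5, 5 and 4 lower.

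Of 28 ligands tested, 7 were higher and 13 lower in untreated cells. At the single times 5, 7 and 13 were higher and 15, 12 and 7 lower, at 4, 12 and 24 h. Vegfa, the vascular growth factor, had 106, 101 and 136 scaled CPM against 14.1 to 43.6 (log2 difference 2.35), and Osm, oncostatin M, was higher by 1.25. Il12b, a subunit of IL-12 and IL-23, had 12.1, 14.2 and 12.1 scaled CPM against 68.1 to 290 (log2 difference -3.27), and Il15 2.33, 2.75 and 2.77 against 11.6 to 45.5 (log2 difference -3.09). Il12a, the other IL-12 chain, had 0, 4 and 1 counts in the untreated libraries. Ppbp, a platelet and myeloid chemokine counted in the megakaryocyte list, had 5.33, 6.01 and 4.24 scaled CPM against 48.2 to 68.9 (log2 difference -3.41). Among immediate-early genes 7 of 21 were higher and 4 lower, and at 4, 12 and 24 h alone 4, 7 and 13 were higher and 3, 4 and 3 lower. Fosb had 154, 327 and 231 counts in untreated libraries and 0 to 10 in isotype ones, and Egr3 and Nr4a1 were higher by 3.07 and 2.55. Atf3 was lower by 0.77 on the log2 scale. Without isotype 4 h replicate 3 the immediate-early genes higher in untreated cells numbered 12, and without untreated replicate 1, untreated replicate 2 or isotype 24 h replicate 3 those lower numbered 2.

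**Figure D5:**
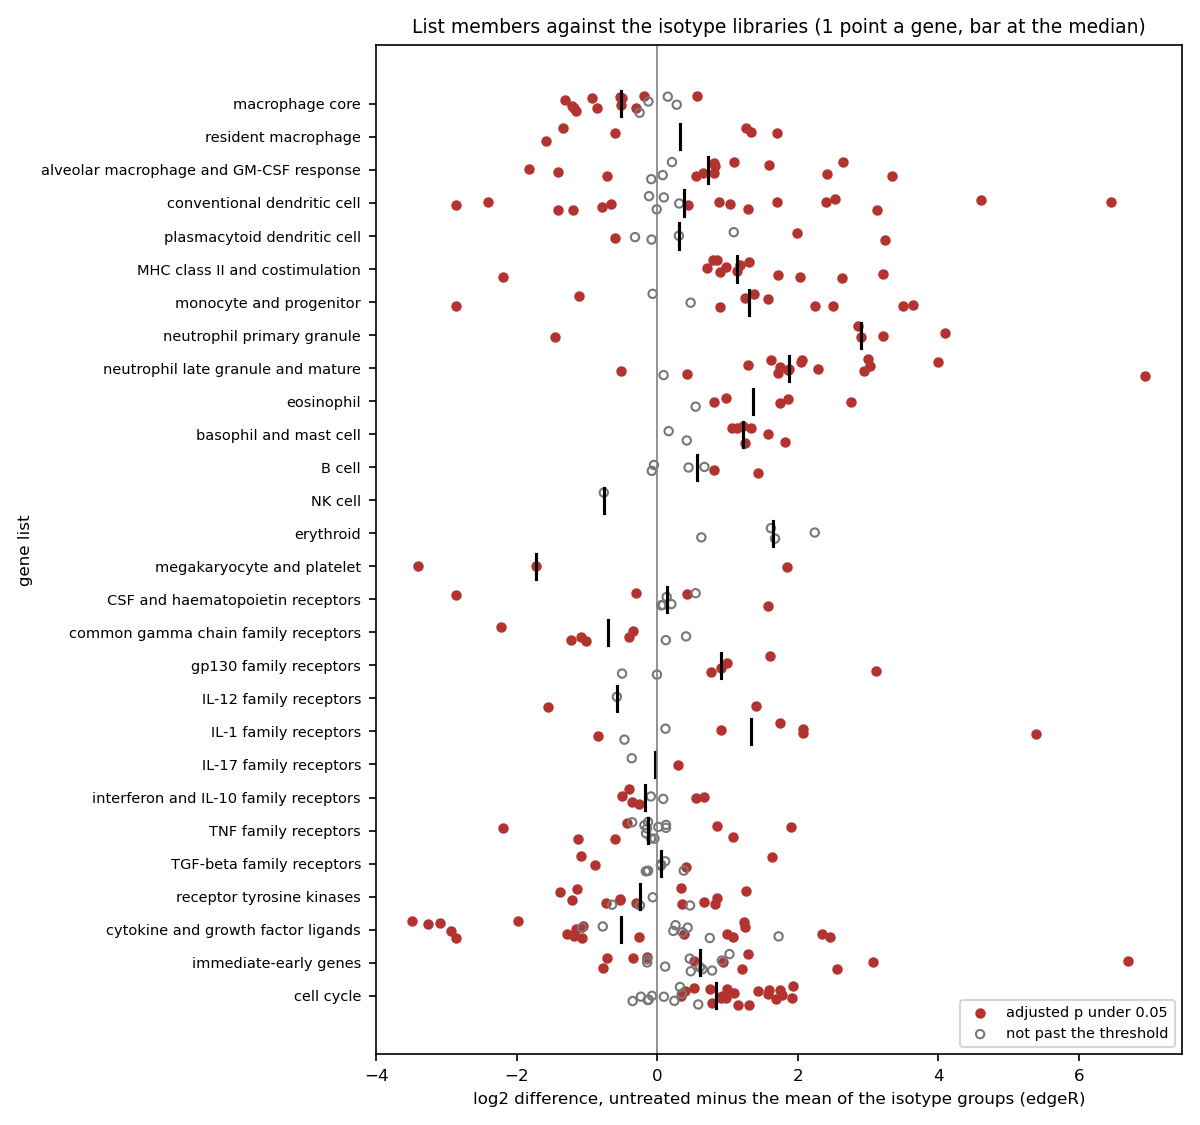
Log2 difference (edgeR, untreated minus the mean of the isotype groups of 4, 12 and 24 h) of each tested gene of the lists drawn, 1 point a gene in its list, filled where the adjusted p is under 0.05, with a black bar at the list's median. The T cell, stromal and sex-linked lists are not drawn. Late neutrophil and class II genes lie to the right, with medians of 1.87 and 1.13, and core macrophage and common gamma chain receptor genes lie to the left, with medians of -0.51 and -0.71.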

How the data were processed

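RNA for 21 libraries was sequenced as single-end reads of 75 bases from 100 ng of RNA per library, per the labels' protocols. The submitters' processing notes name CASAVA 1.8.2, kallisto 0.44.0, DESeq2 and the build GRCm38 (mm10). The authors deposited a table of estimated counts per gene, which holds no gene with a sum under 10 over the libraries, and a second table with the same counts divided by size factors (unit: normalized signal). The estimated counts were rounded to whole numbers for testing. Of 23250 gene IDs, 23187 matched a symbol in the GENCODE annotation of GRCm38, 21231 of them with the version.

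Levels are CPM, counts scaled to a library total of 1000000. Per-length levels used the median transcript length, with the longest transcript as the alternative. Spread was computed over genes with a mean of at least 10 CPM. The comparison was fitted over all 21 libraries with 1 coefficient per group (edgeR 4.0.16, quasi-likelihood test, TMM, filterByExpr, adjusted p under 0.05, R 4.3.3), and DESeq2 1.42.0 and limma 3.58.1 on the normalized table served as alternatives. The script was tested on simulated data. Shared sequence is the share of a gene's words of 31 bases that occur in other genes. Every list and the group itself were chosen with earlier results of these data known, and motifs, receptor pairs, the GC curve and the fit without the ribosomal RNA locus were added after seeing the values. Named genes were the 20 highest per length and 10 highest by CPM, up to 6 highest of each list with its defining members under 1 CPM, the 12 largest CVs, up to 3 genes per list and direction that passed with libraries that did not overlap, and 8 genes named in any case. Further list members named beside these were chosen for their role after their values were seen. Some list members are counted in their lists but not reported by name here.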

Additional observations from a re-analysis of the deposited data

How the results depend on the processing

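The number of genes that differed between untreated and isotype libraries (5801) was 5753 with RLE factors, 5609 with no filter on low counts, 5688 with a minimum mean of 10 counts, 5821 by DESeq2, 4947 by limma on the normalized table and 5744 without the ribosomal RNA locus. Against all 6 treated groups it was 6762. Leaving out 1 library at a time gave 4762 (without untreated replicate 3) to 6394 (without isotype 4 h replicate 3). A GC correction gave 7504, with 4727 genes lower in untreated cells in place of 3014 and 2777 higher, and 4793 lower with the replicate block added; the median log2 difference over all genes was then -0.112, and 0.106 with no filter on low counts, against 0.0126. Csf2ra then changed sign, to -0.41 with the correction (-0.415) and with the block (-0.413). Against isotype 12 h the log2 difference was 0.0897 for Lyz2, -0.422 for Csf2ra, -0.0786 for Csf2rb and -0.0580 for Csf2rb2. With the GC correction, and with the block added, it was -0.0265 and -0.0250 for Csf2rb and -0.106 and -0.103 for Csf2rb2. Lyz1, at 0.000822, had -0.000244 with RLE factors, -0.149 against all 6 treated groups, -0.0780 against isotype 4 h, -0.218 against 24 h, -0.0747 with the GC correction, -0.0372 with the block added and -0.00369 without the ribosomal RNA locus. Leaving out 1 library at a time gave -0.256 to 0.276 for Csf2ra and -0.0609 to 0.0840 for Lyz1. Of these values with a changed sign, those of Csf2ra with the GC correction passed the test. The cause was not tested. Genes at least 2-fold apart between the untreated libraries numbered 72 in place of 168 once the GC curve was removed.

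Replicate numbers are shared between groups in the labels only as numbers: deviations of same-numbered libraries correlated at 0.0875, -0.0262 and 0.0203 with the isotype libraries of 4, 12 and 24 h. The fit with the replicate block gave 5975 genes. For the 85 genes followed, 1124 of the values under settings other than leaving out a library kept direction and side of the threshold, 30 lost the call, 3 gained it and 17 changed sign. Depth limits levels under about 0.323 CPM.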
